A study of Homo sapiens with 4 samples.

Results

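JMJD1C, SENP6, ZEB2, SATB1, MBNL1, CPEB2 and ADAM10 are target genes of the MLL fusion protein (MLL-FP), and the H3K27ac peaks of their loci are described here. They are 7 of the 19671 protein-coding genes that could be placed with a strand on GRCh38. The 7 genes were selected on a measured value, a smaller length of locus under combination peaks than under OTX015 peaks, with each locus taken as the gene body and 10 kb on both sides. That direction is therefore given as a description, and nothing is read from it. H3K27ac ChIP-seq was performed in MOLM13, a human AML cell line that carries the MLL-AF9 fusion. The cells had been treated for 16 h with 500 nM of the BET inhibitor OTX015, which keeps BET bromodomains off acetylated lysines, or with 500 nM of the Menin inhibitor SNDX-50469 and 500 nM of OTX015 together, called the combination. OTX015 is thus present in both groups, and the comparison asks what the Menin inhibitor adds to it. There is 1 ChIP library per treatment, with 1 peak list made from each, so no difference below has a replicate check and no test was made. Cells treated with DMSO or with SNDX-50469 alone were not analysed here, and the input library of each treatment was not used here. The sample titles write H2K27Ac where the antibody label has H3K27Ac, and the antibody label was followed.

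Acetylation of histone H3 at lysine 27 is placed by the acetyltransferases CBP and EP300 on nucleosomes of active promoters and enhancers, and BET proteins bind acetylated histones there. In MLL-rearranged leukemia the fusion protein is held on chromatin with Menin and brings in elongation factors and DOT1L, often in wide domains that run from the start of a gene into its body. Wide H3K27ac peaks over starts and the adjoining part of the gene body are a familiar feature of such target genes in AML cells. Of the 7 genes, JMJD1C encodes a protein of the KDM3 family of histone demethylases, ZEB2 a zinc-finger transcription factor of haematopoiesis and epithelial-mesenchymal transition, and SATB1 a nuclear protein that organizes chromatin loops in lymphoid cells. MBNL1 encodes an RNA-binding regulator of splicing and CPEB2 a protein that binds cytoplasmic polyadenylation elements of mRNAs. SENP6 encodes a protease that trims SUMO chains, and ADAM10 a membrane metalloprotease that sheds ectodomains, including that of Notch.

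The OTX015 list holds 55852 peaks and the combination list 86207. The deposited fold enrichment is pileup over background with 1 added to each, so the background was solved from the lowest peaks of a list and an enrichment over background was computed from it. The solved background was 0.764 fragments per base with OTX015 and 1.47 with the combination, 1.92 times as high, and the lowest peaks stood 6.54-fold and 4.76-fold over it. A weaker region could therefore enter the combination list but not the OTX015 list. Read numbers are not part of the lists. Of 8 myeloid marker loci, such as MPO, SPI1 and CD33, 8 held peaks in both lists, while CD2, CD3E, HBB, GATA1 and ALB held none in either. Peaks were also held by 1 of 4 B cell loci with OTX015 and 3 with the combination, and in each list by 1 of 3 T cell, 1 of 4 erythroid and 2 of 4 non-blood loci. Total cover was similar in the lists on the chromosomes of 6 of the genes (0.880 to 1.096 times), but on chromosome 6, which carries SENP6, it went from 2162 to 4777 kb.

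Start sites of the 7 genes are shown by the 250 bases before them, for the 3 starts at which the whole stretch lay under an OTX015 peak, no base lay under a combination peak, and no run of 20 bases was found in a GENCODE transcript of the same gene. The sequences come from the RefSeq promoter table (GRCh38.p14), are written 5′ to 3′ on the strand of the gene, and have CG dinucleotides in capitals. All 3 lie on the minus strand. That of the outer JMJD1C end, at chr10:63521891-63522140, lies outside JMJD1C and inside the gene record of its divergent neighbour REEP3. That of the inner JMJD1C start, 55.9 kb inside the gene, is chr10:63465978-63466227. That of SATB1, at chr3:18444119-18444368, precedes a start 1.47 kb downstream of the outer end.
JMJD1C, outer 5′ end: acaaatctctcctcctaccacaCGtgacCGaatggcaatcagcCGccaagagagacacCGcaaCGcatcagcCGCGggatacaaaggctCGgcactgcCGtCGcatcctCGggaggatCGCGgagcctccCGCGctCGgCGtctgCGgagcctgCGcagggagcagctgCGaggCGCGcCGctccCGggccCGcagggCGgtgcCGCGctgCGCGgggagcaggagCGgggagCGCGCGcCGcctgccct
JMJD1C, inner start: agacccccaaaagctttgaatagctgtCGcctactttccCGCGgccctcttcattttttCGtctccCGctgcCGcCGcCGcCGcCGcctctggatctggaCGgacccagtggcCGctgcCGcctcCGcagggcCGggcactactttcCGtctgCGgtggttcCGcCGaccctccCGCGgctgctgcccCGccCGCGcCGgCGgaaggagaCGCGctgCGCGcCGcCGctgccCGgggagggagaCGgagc
SATB1, inner start: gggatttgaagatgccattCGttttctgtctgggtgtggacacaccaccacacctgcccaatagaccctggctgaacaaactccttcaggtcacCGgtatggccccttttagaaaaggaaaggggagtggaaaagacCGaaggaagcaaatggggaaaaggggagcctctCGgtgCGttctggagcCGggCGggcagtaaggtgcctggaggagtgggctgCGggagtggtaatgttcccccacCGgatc

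The JMJD1C stretches hold 35 and 34 CG dinucleotides and the SATB1 stretch 9, against a median of 16 and quartiles of 5 and 25 over the 22198 starts of protein-coding genes in the table. The starts covered with OTX015 and bare in the combination thus include sequence above the upper quartile of CG and sequence below the median but within the quartiles. The table holds 14 starts of the 7 genes. At 8 of them all 250 bases lay under an OTX015 peak, and at 6 of these 8 no base lay under a combination peak: the 3 printed, the SENP6 start (32 CG), the outer SATB1 end (10 CG) and the SATB1 start 20.3 kb inside the gene (24 CG). At CPEB2, which has the most CG (40), and at ZEB2 (12) and ADAM10 (25) no base before the start lay under a peak of either list. The motif GGGCGG, counted on both strands, was found at 9 of the 14 starts and at 53.7% of all starts, TGTGGT at 2 (9.36% of all) and CACGTG at 3 (7.37%). CCGGAAGT and TGACTCA, held by 4.40% and 3.45% of all starts, were found at 0 of the 14. None of these motifs contains another. Each of the printed stretches held GGGCGG. The outer JMJD1C and inner SATB1 stretches also held TGTGGT, and the outer JMJD1C stretch CACGTG.

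Summed over the 7 loci, 65.2 kb lay under OTX015 peaks and 17.2 kb under combination peaks, a difference of -47.9 kb, with a median of -4.56 kb per gene. The sum falls into 3 zones: the 5′ window, 10 kb either side of the outer 5′ end of the gene record, the gene interior beyond it, and the flank after the 3′ end. In the 5′ windows 34.4 kb lay under OTX015 peaks and 8.66 kb under combination peaks, and all 7 genes were lower. In the gene interior it was 30.7 and 8.57 kb, and JMJD1C, SENP6, SATB1 and MBNL1 were lower while ZEB2, CPEB2 and ADAM10 had no interior cover in either list. The 3′ flanks held no peak. So 53.7% of the difference lay in the 5′ windows and 46.3% in the interiors, but which zone holds more depends on the window. With 5 kb either side the 5′ windows differed by -17.6 kb and the interiors by -29.1 kb, and with peaks merged across 1 kb the values were -25.5 and -25.8 kb. The choice of the genes sets the total to be lower. At ZEB2, CPEB2 and ADAM10, which had no interior cover, it sets the 5′ window to be lower as well. The division also follows where the OTX015 cover lay, 34.4 kb in the 5′ windows and 30.7 kb in the interiors. Exons and introns were not told apart, since no GRCh38 exon annotation was used here. As background, cover was lower in the combination at 40.7% of 12953 loci of protein-coding genes that had any, and likewise at 38.8% of 5′ windows and 40.7% of interiors.

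**Figure D1:**
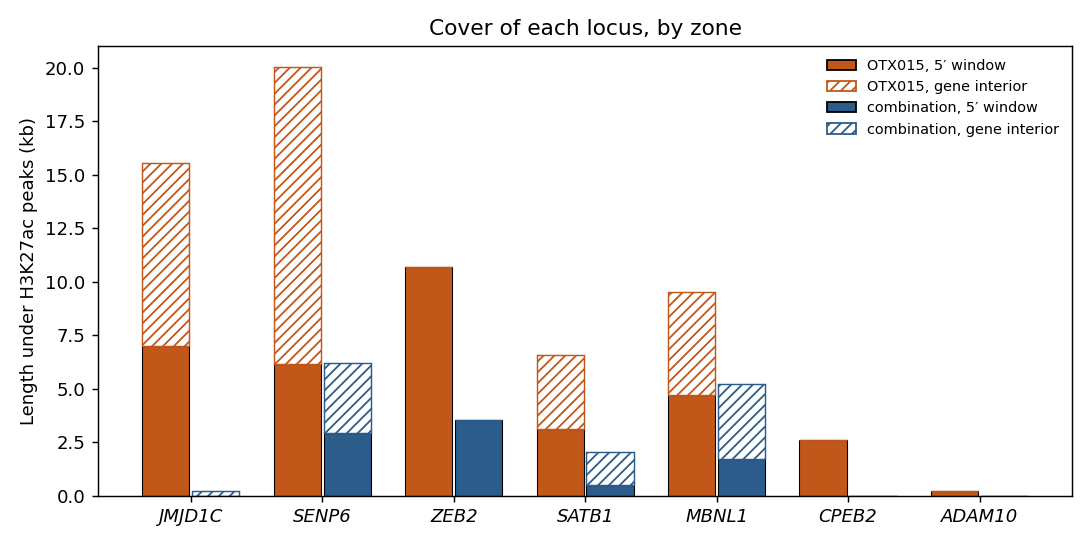
Length under H3K27ac peaks in kb (vertical axis) for each of the 7 loci, with OTX015 in orange and the combination in blue, 1 library each and so no error bars. Solid bars are the 5′ window and hatched bars the gene interior. JMJD1C and SENP6, and by a smaller margin SATB1 and MBNL1, carry more of their OTX015 cover in the interior. ZEB2, CPEB2 and ADAM10 have cover in the 5′ window alone.

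JMJD1C (chr10:63167225-63521890, minus strand, gene ID 221037) is described first. Its locus held 15 OTX015 peaks over 15.5 kb and 2 combination peaks over 0.24 kb, and no base was shared. The outer 5′ end lay under an OTX015 peak of 4205 bp (chr10:63520689-63524893) that ran from -3.003 to 1.201 kb along the gene, counted from that end, with a mean fold of 4.92, a −log10 q of 3.39 and a 10.0-fold enrichment over background. By p this peak stood at rank 497 of 55852. Downstream of it, still in the 5′ window, were peaks of 1013 bp (chr10:63519161-63520173), 118 bp (chr10:63517403-63517520) and 1654 bp (chr10:63514454-63516107), at folds of 3.66 to 3.93. The 5′ window as a whole went from 6.99 kb to 0.

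The strongest JMJD1C peak was not at the outer end. It covered the annotated start 55.9 kb inside the gene (base 63465977), was 4452 bp wide (chr10:63464655-63469106), and had a fold of 6.16, a −log10 q of 5.52 and a 12.9-fold enrichment, at rank 87 of the list. Small peaks flanked it at chr10:63471066-63471432 (367 bp), chr10:63469632-63469763 (132 bp) and chr10:63463437-63463787 (351 bp), with folds of 3.40 to 3.76. Between the 2 starts lay peaks of 662 bp (chr10:63497884-63498545), 1142 bp (chr10:63496093-63497234), 139 bp (chr10:63493001-63493139) and 331 bp (chr10:63491758-63492088), at folds of 3.70 to 4.02. Farther in, 90.5 to 92.6 kb from the outer end, were peaks of 150 bp (chr10:63431265-63431414), 430 bp (chr10:63430179-63430608) and 400 bp (chr10:63429304-63429703), at folds of 3.40 to 3.76. All 15 thus lay in the part of the gene nearest its 5′ end, and the start 253 kb inside the gene was bare in both lists.

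The 2 combination peaks of JMJD1C were small and at other places: chr10:63438059-63438167 (109 bp, fold 3.68), which was 6644 bp from the nearest OTX015 peak, and chr10:63252108-63252238 (131 bp, fold 3.54). The interior of the gene went from 8.56 to 0.24 kb, so the difference at JMJD1C was nearly even between its 5′ window (-6.99 kb) and its interior (-8.32 kb). REEP3 (chr10:63521401-63625128, plus strand), an endoplasmic reticulum membrane protein gene whose 5′ end is 489 bp from that of JMJD1C, shares the 5′ window peaks. Beyond the JMJD1C locus, the rest of the REEP3 locus went from 1.16 to 0.55 kb. The 10 Mb around JMJD1C, its own locus left out, had 0.0764% of its length under OTX015 peaks and 0.113% under combination peaks, so the surroundings were not lower.

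**Figure D2:**
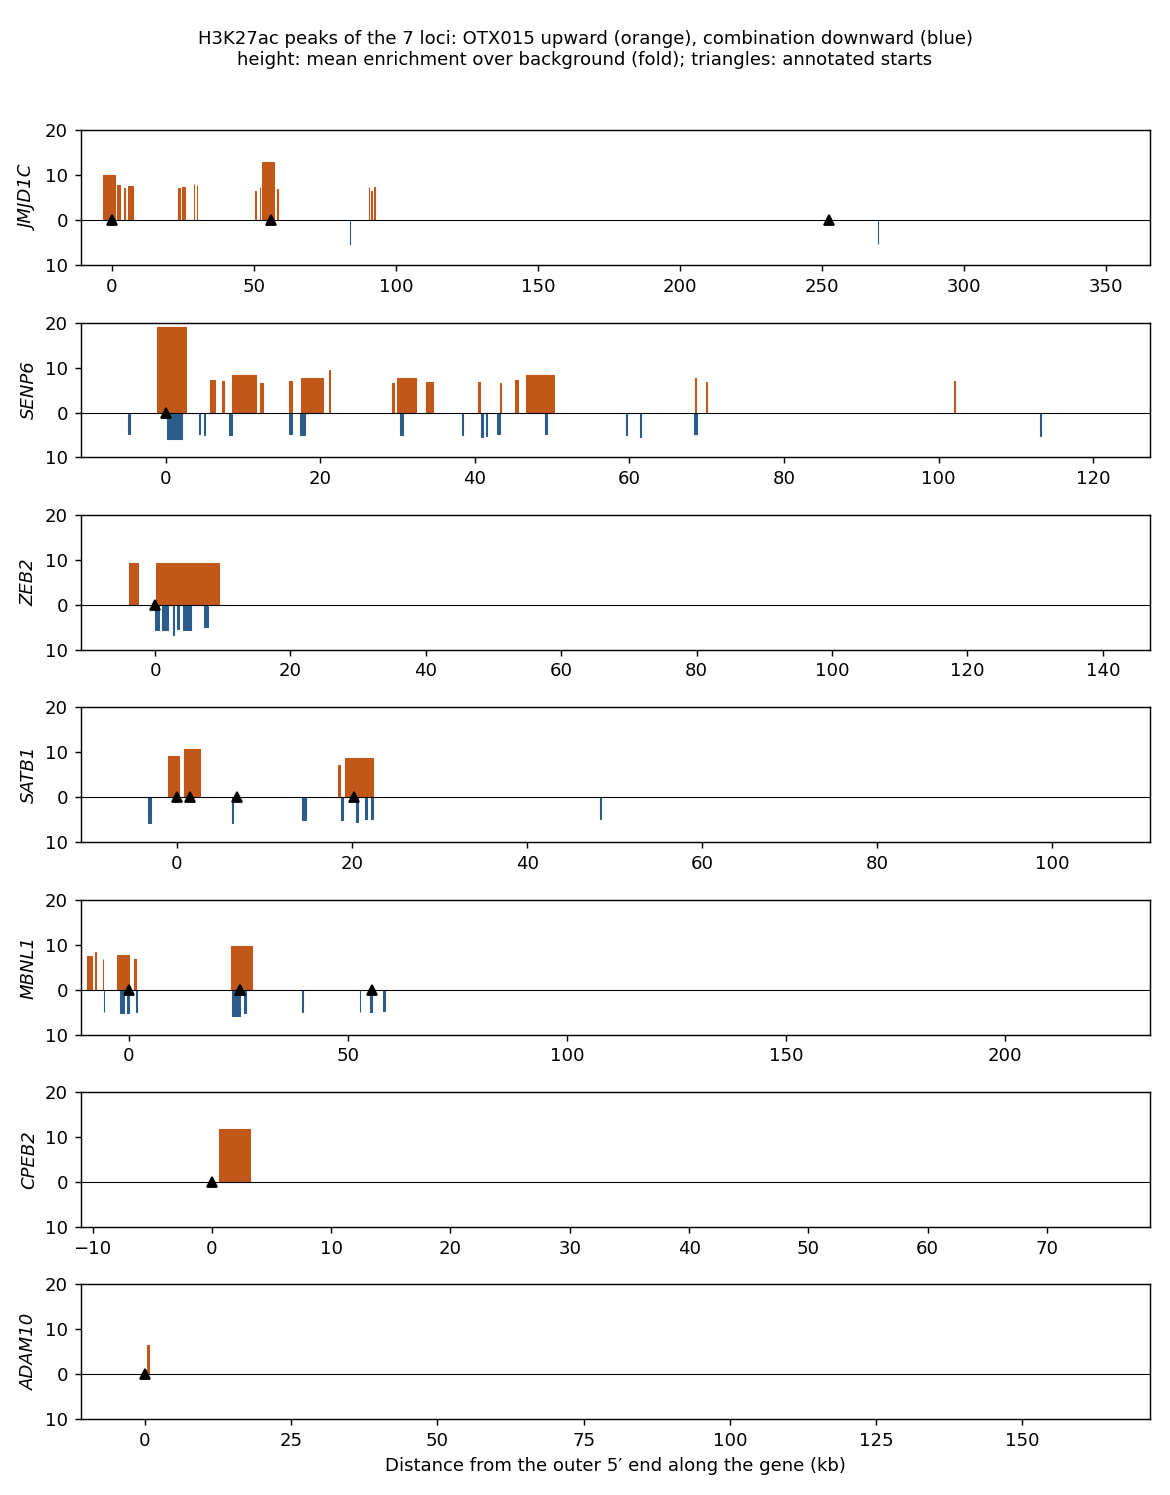
Every H3K27ac peak of the 7 loci against its distance from the outer 5′ end along the gene (horizontal axis, kb), OTX015 upward and combination downward. Bar height is the mean enrichment over background (fold), and triangles mark annotated starts and outer 5′ ends. The wide OTX015 bars sit at starts or within 57.2 kb of the outer end. The combination bars are shorter and narrower in the median, though single bars of the lists overlap in height and width.

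At ZEB2 (chr2:144384081-144520119, minus strand, gene ID 9839) the difference lay wholly in the 5′ window, where the cover went from 10.7 to 3.53 kb. A single OTX015 peak of 9371 bp (chr2:144510616-144519986), the widest of any of the 7 loci, ran from 133 to 9503 bp inside the gene with a fold of 4.57, a −log10 q of 2.78 and a 9.23-fold enrichment. A second, of 1315 bp (chr2:144522596-144523910, fold 4.57), began 2477 bp upstream, and the nearest combination peak was 2532 bp away.

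In the combination list the ZEB2 domain was not empty but broken up. Its 6 peaks, from the 5′ end inward, were chr2:144519549-144520063 (515 bp), chr2:144518284-144519067 (784 bp), chr2:144517259-144517419 (161 bp), chr2:144516535-144516827 (293 bp), chr2:144514805-144515940 (1136 bp) and chr2:144512300-144512942 (643 bp). Together they covered 36.9% of the wide OTX015 peak, and 97.8% of their own length lay under OTX015 peaks. The 161 bp piece had a fold of 4.40 and a −log10 q of 2.94, the highest of all 43 combination peaks of the 7 loci, and the other folds were 3.36 to 3.71. The surrounding 10 Mb was also lower at ZEB2, with 0.262% under OTX015 peaks and 0.126% under combination peaks, and the part of that in the result was not tested.

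SATB1 (chr3:18345377-18445592, minus strand, gene ID 6304) had 6.59 kb under 4 OTX015 peaks and 2.03 kb under 8 combination peaks, with 0.716 kb shared. The outer end lay under a peak of 1235 bp (chr3:18445321-18446555, fold 4.56, −log10 q 2.70). The start 1.47 kb inside lay under a peak of 1861 bp (chr3:18442937-18444797) with a fold of 5.23, a −log10 q of 3.83 and a 10.8-fold enrichment, at rank 301. No combination peak met either, and the 5′ window went from 3.10 to 0.482 kb.

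The widest SATB1 peak, 3309 bp at chr3:18423139-18426447 with a fold of 4.34, covered the start 20.3 kb inside the gene (base 18425339), and beside it was a peak of 188 bp (chr3:18426991-18427178, fold 3.71). This stretch was thinned rather than cleared: the combination list had peaks of 234 bp (chr3:18424894-18425127), 224 bp (chr3:18423863-18424086) and 258 bp (chr3:18423151-18423408) inside it, which covered 21.6% of the OTX015 peak. Combination peaks that met no OTX015 peak lay at chr3:18426648-18426833 (186 bp), chr3:18430859-18431351 (493 bp) and chr3:18397133-18397288 (156 bp), with folds of 3.29 to 3.40. Others were a peak of 123 bp (chr3:18439215-18439337, fold 3.85) beside the start 6.86 kb inside the gene, where the OTX015 list had none, and a peak of 359 bp upstream of the gene (chr3:18448534-18448892, fold 3.87). The interior went from 3.50 to 1.55 kb. The surrounding 10 Mb was at 0.556% and 0.522%.

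MBNL1 (chr3:152243632-152465780, plus strand, gene ID 4154) had a combination cover 0.546 times that with OTX015, the highest ratio of the 7, with 9.52 kb under 6 OTX015 peaks, 5.20 kb under 10 combination peaks and 3.45 kb shared. Its widest OTX015 peak, 4834 bp at chr3:152266908-152271741 with a fold of 4.77 and a −log10 q of 2.98, covered the starts 25.3 and 25.5 kb inside the gene. The combination list had a peak of 1877 bp there (chr3:152267153-152269029, fold 3.95, −log10 q 2.32) and another of 345 bp (chr3:152270008-152270352, fold 3.51), which together covered 46.0% of it. At the outer end an OTX015 peak of 2700 bp (chr3:152241022-152243721, fold 3.88) was met by combination peaks of 768 bp (chr3:152241677-152242444) and 458 bp (chr3:152243264-152243721), or 45.4% of its length. Both wide MBNL1 peaks were therefore present in reduced form, at starts, in the combination.

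The other OTX015 peaks of MBNL1 were unmet: chr3:152234123-152235175 (1053 bp, fold 3.79), chr3:152235814-152236084 (271 bp, fold 4.15) and chr3:152237659-152237787 (129 bp, fold 3.47) upstream, and chr3:152244697-152245231 (535 bp, fold 3.49) downstream of the outer end. In the combination list chr3:152237895-152238061 (167 bp) and chr3:152245262-152245574 (313 bp) lay 107 and 30 bp from the last 2 of these without overlap. Deeper in the gene were combination peaks with no OTX015 counterpart, at chr3:152283050-152283335 (286 bp), chr3:152296299-152296444 (146 bp), chr3:152298613-152299044 (432 bp) and chr3:152301578-152301988 (411 bp), with folds of 3.24 to 3.38. The 432 bp peak covers the start 55.4 kb inside the gene. The 5′ window of MBNL1 went from 4.69 to 1.71 kb and the interior from 4.83 to 3.50 kb. With the gene body alone the MBNL1 difference was -1.56 kb and with 50 kb flanks -12.0 kb, against -4.32 kb with 10 kb, so its size depends on the flank. The surrounding 10 Mb was at 0.285% and 0.217%.

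CPEB2 (chr4:15002481-15070151, plus strand, gene ID 132864) had 1 OTX015 peak and no combination peak. The peak was 2582 bp wide (chr4:15003082-15005663), lay 601 to 3182 bp inside the gene, and had a fold of 5.63, a −log10 q of 4.47 and an 11.7-fold enrichment, at rank 176 of 55852. The nearest combination peak was 304021 bp away. It was the only peak of either list in the locus. Of the surrounding 10 Mb, the locus left out, 0.0987% lay under OTX015 peaks and 0.0502% under combination peaks.

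SENP6 (chr6:75601880-75718281, plus strand, gene ID 26054) had the most cover of the 7 genes and the highest peak. With OTX015 18 peaks covered 20.0 kb and with the combination 17 peaks covered 6.22 kb, of which 3.55 kb was shared, 17.7% of the OTX015 cover and 57.0% of the combination cover. The outer 5′ end lay under an OTX015 peak of 3820 bp (chr6:75600700-75604519) with a fold of 8.77, a −log10 q of 11.3 and an 18.9-fold enrichment, at rank 13 of the whole list. In the combination list a peak of 1968 bp (chr6:75602008-75603975) lay inside it, from 128 bp downstream of the end, with a fold of 3.95, a −log10 q of 2.38 and a 5.97-fold enrichment. It was the widest combination peak of the 7 loci and covered 51.5% of the OTX015 peak. The promoter peak of SENP6 was thus still called in the combination, but narrower and at a lower enrichment.

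Another 4 wide OTX015 peaks followed within 50.3 kb of the SENP6 end: 3038 bp at chr6:75610503-75613540 (fold 4.17), 2859 bp at chr6:75619439-75622297 (fold 3.87), 2391 bp at chr6:75631838-75634228 (fold 3.87) and 3599 bp at chr6:75648556-75652154 (fold 4.22). Combination peaks of 595 bp (chr6:75619259-75619853), 428 bp (chr6:75632170-75632597) and 254 bp (chr6:75651000-75651253) met the last 3 and covered 14.5%, 17.9% and 7.06% of them, while the nearest to the first was a peak of 411 bp (chr6:75610064-75610474) that ended 28 bp short of it. The remaining 13 OTX015 peaks were narrow. In the 5′ window were chr6:75607575-75608220 (646 bp) and chr6:75609115-75609425 (311 bp). Up to 34.6 kb inside the gene were chr6:75614148-75614467 (320 bp), chr6:75617771-75618206 (436 bp), chr6:75622959-75623091 (133 bp), chr6:75631152-75631392 (241 bp) and chr6:75635521-75636488 (968 bp). Farther in were chr6:75642275-75642594 (320 bp), chr6:75645181-75645300 (120 bp), chr6:75647035-75647419 (385 bp), chr6:75670415-75670538 (124 bp), chr6:75671773-75671915 (143 bp) and chr6:75703823-75703979 (157 bp). Their folds were 3.40 to 3.85 except for the 133 bp peak at 4.64, and the 436 bp and 124 bp peaks were met by combination peaks.

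The other combination peaks of SENP6 were small and spread along the gene. In the 5′ window were chr6:75596991-75597304 (314 bp), upstream of the gene, chr6:75606165-75606298 (134 bp) and chr6:75606876-75606983 (108 bp). In the interior were chr6:75617811-75618166 (356 bp), chr6:75640186-75640339 (154 bp), chr6:75642691-75642896 (206 bp), chr6:75643354-75643491 (138 bp) and chr6:75644803-75645105 (303 bp). Past these lay chr6:75661398-75661606 (209 bp), chr6:75663244-75663369 (126 bp), chr6:75670256-75670631 (376 bp) and chr6:75714980-75715116 (137 bp). None had a fold above 3.66. The 5′ window went from 6.16 to 2.94 kb and the interior from 13.9 to 3.28 kb, so most of the SENP6 difference was interior. This went against its surroundings, since the 10 Mb around it had 0.615% of its length under OTX015 peaks and 1.14% under combination peaks.

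ADAM10 (chr15:58588809-58749707, minus strand, gene ID 102) differed by 1 small peak alone. An OTX015 peak of 220 bp (chr15:58749078-58749297), 410 to 629 bp inside the gene, had a fold of 3.43, a −log10 q of 1.13 and a 6.61-fold enrichment, where the lowest peaks of that list stand at 6.54. No combination peak lay in the locus, and the nearest was 183169 bp away. ADAM10 is the member closest to no difference, at -0.22 kb. Among the other fusion targets LMO2, at 0.1 kb, was the closest on the other side. With peaks of a −log10 q of at least 2 only, ADAM10 had no peak in either list, and a difference at this gene was not detectable at the depth of these lists.

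The 14 starts of the promoter table and the outer end of the MBNL1 gene record, which that table does not hold, make 15 starts. Of these 15, 12 had OTX015 cover within 1 kb and 8 had combination cover, 6 of them in common. Summed over the starts this cover was 17.7 kb and 4.76 kb. It was lower in the combination at 12 starts and higher at 2, the SATB1 start 6.86 kb inside the gene (0 and 0.123 kb) and the MBNL1 start 55.4 kb inside the gene (0 and 0.432 kb). The starts of SENP6 (2.001 and 0.873 kb), ZEB2 (0.868 and 0.515 kb) and MBNL1 (1.09 and 0.458 kb at the outer end) retained part of their cover, and those of JMJD1C, CPEB2 and ADAM10 none. At SATB1 the outer end (1.441 and 0 kb) and the start 1.47 kb inside (1.68 and 0 kb) also retained none. The SATB1 start 20.3 kb inside the gene went from 2.001 to 0.234 kb. Over all annotated starts of protein-coding genes with cover within 1 kb, 50.1% were lower in the combination. Windows of neighbouring starts overlap, as at the 2 MBNL1 starts near 25 kb.

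**Figure D3:**
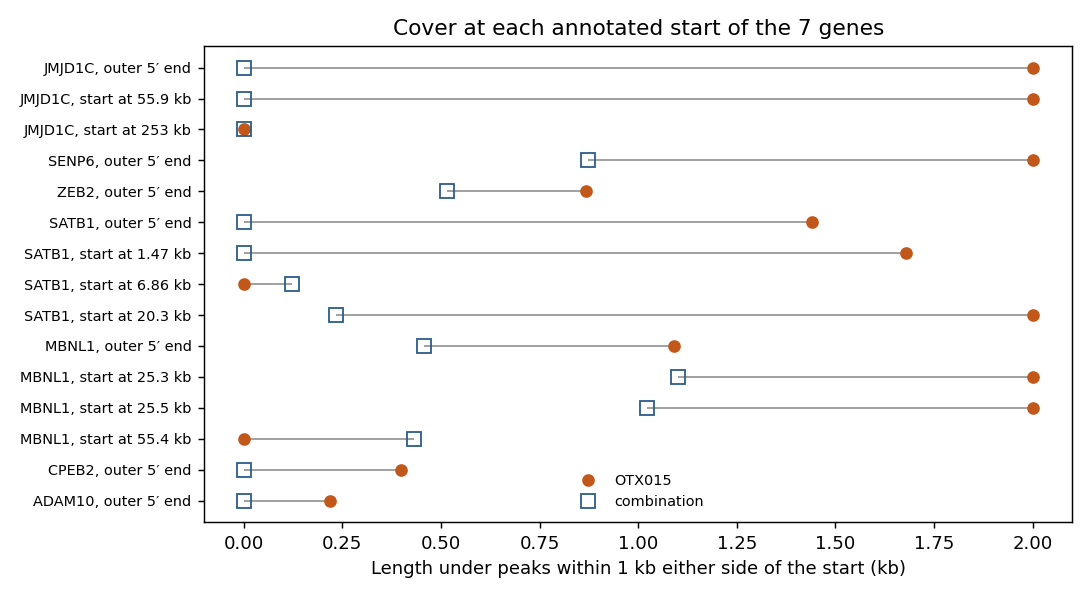
Length under peaks within 1 kb either side of each annotated start or outer 5′ end (horizontal axis, kb), with OTX015 as filled circles and the combination as open squares. The 2 outermost JMJD1C starts go from 2.001 kb to 0, the MBNL1 starts near 25 kb keep 1.101 and 1.023 kb, and 2 starts have cover in the combination list alone.

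Sorted by place, the OTX015 peaks within 1 kb of an outer 5′ end (8 peaks) summed to 26.0 kb and those within 1 kb of another annotated start (3 peaks) to 12.6 kb. In the combination list these classes held 3 peaks of 2.94 kb and 5 peaks of 3.01 kb. Each peak was placed whole, by whether any part of it came within 1 kb of a start. The 9371 bp OTX015 peak of ZEB2 thus counts wholly at the outer end. Of the combination peaks that met it only the 515 bp piece does, and the others count elsewhere in the 5′ window. The sums by class depend on this rule. Peaks elsewhere in the 5′ window summed to 10.1 kb (11 peaks) and 5.59 kb (13 peaks), and interior peaks away from a start to 16.5 kb (25 peaks) and 5.68 kb (22 peaks). Number and length parted here: away from starts the lists held similar numbers of peaks, but the combination peaks were shorter. Part of what the 10 kb rule puts in the interior is thus at inner starts, as at JMJD1C, SATB1 and MBNL1, while the interior difference of SENP6, for which the table gives 1 start, is not.

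The 7 loci held 47 OTX015 peaks and 43 combination peaks in all. Median width was 436 and 293 bp, and 19 OTX015 peaks against 3 combination peaks reached 1 kb. Median enrichment over background was 7.37-fold and 5.04-fold, and the highest 18.9-fold and 6.71-fold. The median fold was 3.76 and 3.40 in these loci and 3.56 and 3.43 over the whole lists. The median width over the whole lists was 303 and 339 bp. The lowest peaks of the whole lists also stood lower in the combination, at 4.76-fold against 6.54-fold over background. The part of this in the lower enrichment of these loci was not tested. A −log10 q of at least 2 was reached by 14 OTX015 peaks and 5 combination peaks, the latter at SENP6, ZEB2, SATB1 (2 peaks) and MBNL1. The share of all peaks at that limit was not computed, so these counts describe the loci alone. A single combination peak, the 161 bp piece at ZEB2, reached the 6.54-fold of the lowest OTX015 peaks. All but 0.161 kb of the combination cover of these genes thus came from peaks below the lowest enrichment in the OTX015 list. This is not particular to these genes. The piece at ZEB2 had a fold of 4.40, and the median fold of the whole combination list was 3.43, so most of that list lay below it too.

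**Figure D4:**
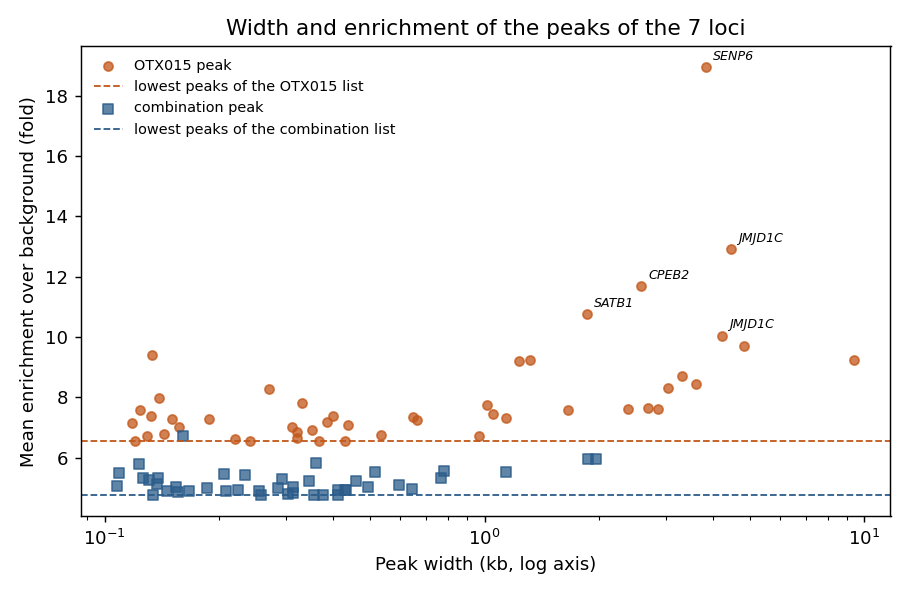
Peak width (kb, log axis) against mean enrichment over background (fold) for the 47 OTX015 peaks (circles) and 43 combination peaks (squares) of the 7 loci, with the lowest enrichment of each list as a dashed line at 6.54 and 4.76. Named OTX015 peaks have a −log10 q of at least 3, and every combination peak lies below 7-fold.

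An overlap of at least 1 bp joined 10 of the 47 OTX015 peaks to combination peaks, and 19 of the 43 combination peaks to OTX015 peaks. On the same chromosomes 20.1% of all 10846 OTX015 peaks and 12.1% of all 18356 combination peaks were met in this way. Chromosome 6 held 5434 and 12190 of these peaks, and its combination cover was 2.21 times that with OTX015. Shares without chromosome 6 were not computed. Wide peaks gave another picture. Of the 12 OTX015 peaks of at least 2 kb in these loci 8 were met and 4 were not: both wide peaks of JMJD1C, that of CPEB2 and the second of SENP6. Of all 264 OTX015 peaks of at least 2 kb on these chromosomes, chromosome 6 included, 93.9% were met. The median share of a wide peak overlapped was 16.2% in the 7 loci and 73.2% over the 264, at similar median widths (3454 and 3012 bp) and enrichments (8.97-fold and 8.74-fold). The genes were chosen for low combination cover, which these overlaps share, so they describe the loci and support nothing. The limit of 2 kb was chosen after the values were seen.

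Among all 12953 loci with cover the median difference was 0.134 kb and the 1st percentile -3.61 kb. Ranked from the lowest, JMJD1C stood at 5, SENP6 at 6, ZEB2 at 29, SATB1 at 87, MBNL1 at 93, CPEB2 at 230 and ADAM10 at 3420. For the 5′ window alone the order was ZEB2 at 3, JMJD1C at 4, SENP6 at 51, MBNL1 at 61, SATB1 at 83, CPEB2 at 85 and ADAM10 at 2202. SENP6 thus stood nearer the lowest by its locus than by its 5′ window, and ZEB2 the other way round. These ranks hold for the peak lists as deposited. The genes were chosen on the locus difference, of which the 5′ window is a part, so the ranks describe them and support nothing. Of the 905 loci with at least 5 kb under OTX015 peaks, which include JMJD1C, SENP6, ZEB2, SATB1 and MBNL1, 38.5% were lower in the combination.

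**Figure D5:**
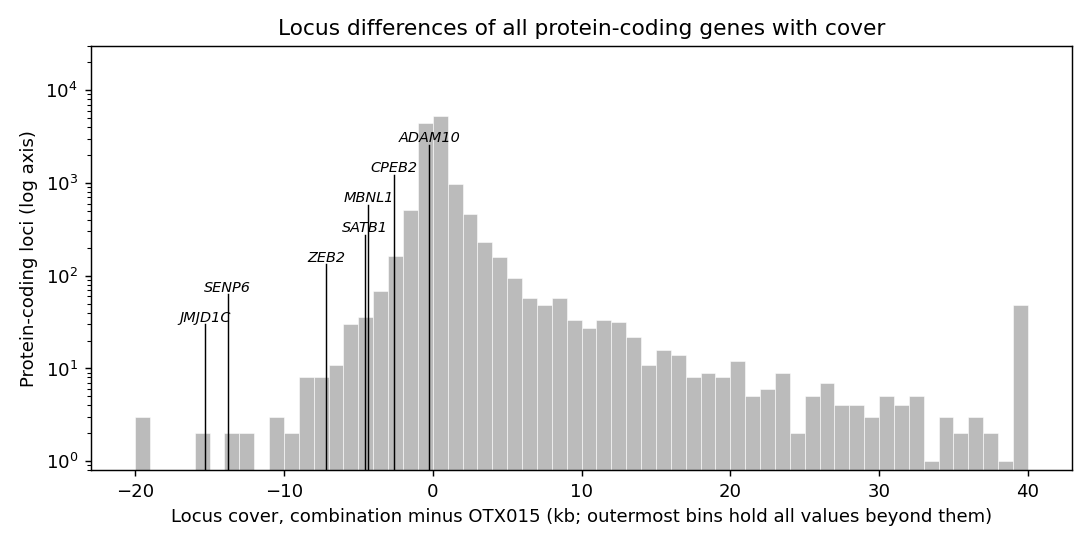
Number of protein-coding loci (vertical log axis) by difference in cover, combination minus OTX015 (horizontal axis, kb), with the 7 genes as black lines whose heights only separate the names. JMJD1C (-15.3 kb) and SENP6 (-13.8 kb) stand in the sparse lower tail and ADAM10 (-0.22 kb) among the bulk of loci. The 7 genes were chosen for a negative value on this axis.

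The other MLL-FP target genes listed are what was left after the 7 had been picked for lower cover, so their counts are a description alone. Of these 23 20 had cover, 9 lower and 11 higher in the combination, with a median difference of 0.112 kb. In the 5′ window 11 were lower and 7 higher, and in the interior 8 were lower and 8 higher. The largest differences were at MEIS1 (9.34 and 0 kb), CDK6 (11.6 and 3.34 kb) and BMI1 (17.3 and 10.2 kb) on the lower side, and on the higher side at FLT3 (7.90 and 12.6 kb), RUNX2 (9.79 and 14.5 kb) and ARID1B (6.52 and 19.2 kb). ARID1B and RUNX2 are on chromosome 6 like SENP6, and like its surroundings they were higher. Loci of neighbouring HOXA genes overlap and share peaks.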

How the data were processed

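Per the submitters' processing notes, reads of the 2 ChIP libraries were prepared with bcl2fastq 2.17 and Trimmomatic 0.33, with alignment by Bowtie 1.1.2 to GRCh38. MACS2 2.1.0 made a broad peak list for each library separately. deepTools is named without a role, and the MACS2 options are not given in the sources used here. The authors deposited for each peak its score, fold over background and −log10 of p and q, each averaged over the peak. No read counts were used, so depth is known only through the background solved under a Poisson model. Cover is the union of peaks, written with 1-based coordinates. Gene positions came from RefSeq (GRCh38.p14). Strands came from its promoter table (15841 genes) or, by symbol and chromosome, from GENCODE v44 lifted to GRCh37 (3830 genes), and no coordinate was converted. The promoter table held 14 starts of the 7 genes, and upstream stretches that share a run of 20 bases with a GENCODE transcript of the same gene are not printed. A run of bases after each start was looked up in the same transcripts. It was found for the printed inner JMJD1C start, but not for the outer JMJD1C end or the printed SATB1 start.

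The members, the other fusion targets and the marker lists were chosen with earlier results of these data known. Named are the 7 genes with all their peaks, neighbours whose 5′ end lies inside a member locus, and the 3 other targets with the largest difference on each side. Some marker loci are not reported here by name. LMO2, the classes by annotated start and the wide-peak comparison were added after the values were seen. Cover, overlap, zones and background were tested on simulated data with known answers. Alternatives were stricter, equal-number, equal-enrichment or merged peaks, other flanks and windows, and other overlap rules. Scripts ran under Python 3.11.15 with pandas 2.3.3, numpy 2.4.6, matplotlib 3.10.9 and scipy 1.17.1.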

Additional observations from a re-analysis of the deposited data

How the results depend on the processing

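The summed locus difference stayed between -39.4 kb (gene body alone) and -65.0 kb (a common enrichment of 6.54 over background), the 5′ window difference between -17.6 and -34.3 kb and the interior difference between -16.1 and -30.7 kb under the alternatives run. Of 42 differences of single genes 41 were lower and 1, ADAM10 at a −log10 q of at least 2, was 0, so 6 genes were then lower. The gene with the largest difference was JMJD1C (-15.3 kb) in the values reported, but ZEB2 at that limit (-10.5 kb, against -8.66 at JMJD1C and -8.62 at SENP6), and SENP6 with equal numbers of peaks (-16.6 kb), at the common enrichment (-20.01 kb) and with the gene body alone (-12.9 kb). The 5′ windows held more of the difference than the interiors except with a window of 5 kb or with merged peaks. The common enrichment gave -9.52 kb at MBNL1, the whole of its OTX015 cover. That limit is the lowest enrichment of the OTX015 list. It kept every OTX015 peak, but only 0.161 kb of combination cover in these loci. Its values thus restate the OTX015 cover and check nothing. The number of OTX015 peaks met, 10, was 3 when at least 50% of a peak had to be covered, 19 when a combination peak within 1 kb was enough, and 5 among peaks with a −log10 q of at least 2. These follow from how each rule is built. The genes were chosen for lower cover, so a stable sign supports nothing. No paired analysis was possible because each treatment has 1 library, and for the same reason no library could be left out. The height a region needed to be called limits what is said of ADAM10 and of other peaks near the lowest enrichment of either list.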
